A study of Homo sapiens with 4 samples.

Results

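The AP-1 transcription factor genes and their immediate early companions were followed in RNA-seq counts of UMSCC74B, a cell line established from a squamous carcinoma of the head and neck (HNSCC). The 10 genes were chosen by name from 29655 distinct gene names in the count tables. They comprised the Fos family (FOS, FOSB, FOSL1 and FOSL2), the Jun family (JUN, JUNB and JUND) and the early response genes EGR1, IER2 and IER3. Each name had a single row in every table, so that no rows had to be summed. The cells were given control shRNA (2 libraries, labelled wild type) or shRNA against PRMT5 (2 libraries, labelled PRMT5 KD), and all were collected at 72 h. The sample labels describe plasmid transfection in medium without antibiotic, whereas the methods of the study describe lentiviral particles, and both groups went through the same delivery. The comparison asks how silencing PRMT5, an arginine methyltransferase, alters the transcripts of these cells. Neither source states whether the libraries of a group came from separate cultures, so p-values measure only the spread between these libraries, which may be technical.

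AP-1 is a dimer of basic leucine zipper proteins. Jun proteins can pair among themselves or with a Fos protein, whereas Fos proteins need a Jun partner to bind DNA, and the dimers bind TPA response elements and cAMP response elements. The immediate early genes among them, such as FOS and EGR1, are switched on within minutes of a growth factor or stress signal, without new protein synthesis, and are then shut off again. FOSL1, FOSL2 and JUND are expressed for longer, and FOSL1 is a well known AP-1 subunit of squamous and invasive carcinoma cells.

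Libraries held between 52263508 and 66070664 estimated counts, with 71.5% to 81.4% of them in protein-coding genes. Ribosomal RNA, nuclear and mitochondrial together, took 15.3% and 14.2% of the counts in control replicates 1 and 2. In PRMT5 KD replicates 1 and 2 it took 26.2% and 18.0%. PRMT5 itself had 94.3 and 84.2 CPM in control, and in the PRMT5 KD libraries it had 132 and 150 CPM (CPM: counts scaled to library size, with TMM factors over the genes tested). The log2 fold change was 0.66 ± 0.12 (standard error, edgeR FDR = 0.00548), so the transcript was higher under the PRMT5 KD label, and every direction below is by label only. Without control replicate 2 the FDR was 0.0677. The study describes an immunoblot of the silencing, a measure of the protein that these counts do not give. The markers expected of a squamous line were mostly absent. KRT5, KRT14 and KRT6A had at most 22 counts in any library, CDH1 had at most 9, and 3 of the 10 squamous markers listed (TP63, DSG3 and ITGA6) were expressed well enough to be tested. Those 3 fell. KRT17 had 5 and 6 counts in control against 53 and 71 under the PRMT5 KD label, SFN 3 and 5 against 28 and 86, and KRT14 0 and 0 against 11 and 22, all below the filter. The summed RPKM of the list was 17.9 and 16.4 in control against 8.43 and 12.9 under the PRMT5 KD label. Of 8 fibroblast markers, 7 were tested and all 7 fell, with sums of 138 and 154 RPKM in control against 21.6 and 24.9. In the same libraries CD14 and PECAM1 fell and CD68 rose, and those were the only markers tested among the 7 blood and 5 endothelial markers. Of 5 melanocyte and neural markers 3 were tested and 1, MBP, fell. CD3E, MLANA and SOX10 had no counts in any library. The part of these shifts in the results below was not tested, and in bulk RNA fewer cells of a type and less RNA per cell cannot be told apart.

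Short stretches of promoter sequence are shown for the genes whose control elements are textbook examples of AP-1 and serum response regulation. The sequences are from RefSeq (GRCh38.p14), in windows from 250 bases before to 50 bases from each start, and 8 of the 10 genes matched an entry (FOSL1 and IER3 did not). They read 5′ to 3′ on the gene's strand, with the matched letters in capitals.
JUND, minus strand, chr19:18281807-18281830: cgcccccaTGACGTCAacccacaa
JUN, minus strand, chr1:58784099-58784122: ccttggggTGACATCAtgggctat
FOS, plus strand, chr14:75278755-75278778: ttgagcccgTGACGTttacactca
EGR1, plus strand, chr5:138465367-138465390: ggtcctgCCATATTAGGgcttcct
EGR1, plus strand, chr5:138465389-138465412: ctgcttcCCATATATGGccatgta
The first holds the full cAMP response element TGACGTCA, which is its own reverse complement and lies 200 to 193 bases before the JUND start. Of the 8 genes JUND alone carried it, as did 1.85% of 35116 promoter windows. The JUN window holds TGACATCA (searched on both strands, with TGATGTCA), 67 to 60 bases before the start, the element that JUN dimers themselves can bind, and 2.61% of all windows had it. The FOS window holds the core letters TGACGT, 64 to 59 bases before the start. These were present (with ACGTCA on the other strand) in FOS, FOSB, FOSL2, JUND and EGR1 and in 7.98% of all windows. In JUND the full element contains them on both strands, and a further match lies 87 to 82 bases before the start. The last 2 windows are CArG boxes, the sites of serum response factor, at 105 to 96 and 83 to 74 bases before the EGR1 start. Within these windows EGR1 alone of the 8 genes had this box, as did 1.29% of all windows. Sites further upstream were not searched. The TPA response element TGAGTCA, searched on the other strand as TGACTCA, was found only in FOSL2, against 4.95% of all windows. It lies at positions 5 to 11 from the RefSeq start (chr2:28392862-28392868). That start is inside the FOSL2 span given below, which comes from GENCODE. A match gives letters in a window and does not show that a factor was bound.

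All 10 genes were tested, since each passed the filter on low values (0.5 RPKM or more in each library of a group) in control and in the libraries labelled PRMT5 KD alike. A call needed an FDR under 0.05 together with a log2 fold change of 0.5 or more in size. FOSL1 and FOSB rose, by 2.82-fold and 2.79-fold, JUND fell by 1.0 on the log2 scale, and the other 7 genes were not called. Of all 11884 protein-coding genes tested, 45.5% were called (21.2% higher and 24.3% lower), so the share of the 10 genes called, 30.0%, was below the background. Of all calls 46.6% were higher, and with total counts in place of TMM, where the median log2 change over all genes was 0.17, 61.4% were. The 3 genes were also those called at an absolute log2 change of 1 or more, where the background was 21.5% (8.65% higher and 12.8% lower), and those with an FDR under 0.05 at any size of change, where it was 54.4%. The median log2 fold change of the 10 genes was -0.08, against -0.01 over all genes tested, with 5 genes above 0 and 5 below. The 4 Fos genes were all above 0 and the 3 Jun genes all below, although JUNB was above 0 with total counts as the scaling and without control replicate 2. Libraries of the groups did not overlap for 7 of the 10 genes (70.0%), and for 80.5% of all genes tested. A fit without 1 library leaves 1 library in that group, so its spread comes from the other group alone. Calls in such fits, below, have no replication in the reduced group.

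**Figure D1:**
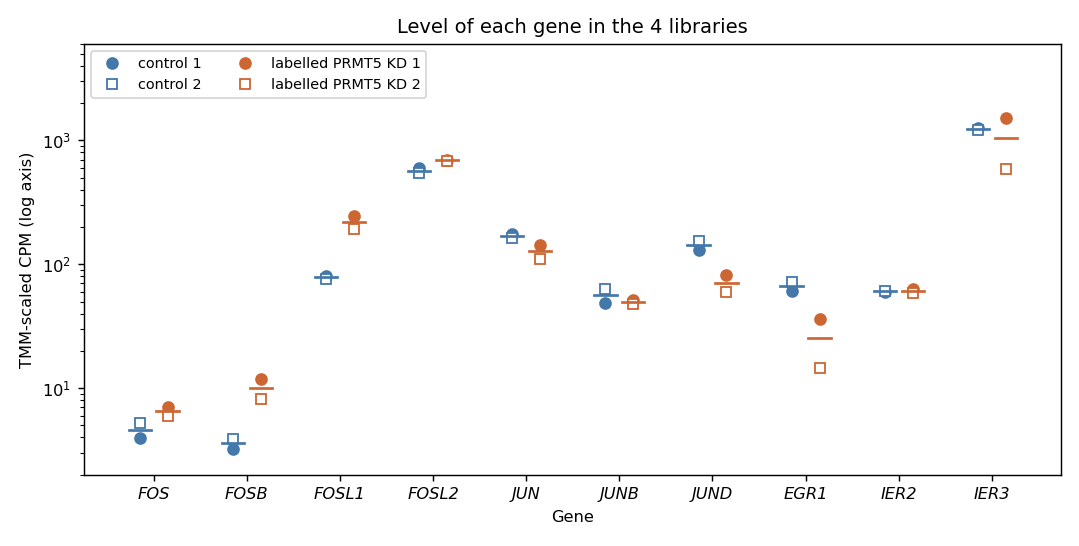
TMM-scaled CPM (log axis) of each gene, with a point per library (circles replicate 1, open squares replicate 2) and short lines at the mean of each group. FOSL1 and FOSB lie higher in both libraries labelled PRMT5 KD, JUND and EGR1 lie lower in both, and the PRMT5 KD libraries of EGR1 and IER3 are far apart.

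FOSL1, which codes for the Fos family protein Fra-1, occupies 65892049 to 65900573 of chromosome 11 (minus strand, GRCh38, as all positions) and has 4 exons in its canonical transcript. It had 80.9 and 75.5 CPM in control, and in the PRMT5 KD libraries it had 248 and 194 CPM, so the lowest PRMT5 KD library was well above the highest control library. The means were 78.2 ± 3.81 CPM and 221 ± 37.6 CPM (SD, n = 2 each), and the log2 fold change was 1.498 ± 0.15 (standard error, edgeR FDR = 0.000618). Among all genes tested this change stood at the 95.5 percentile. It was called under all 15 alternative settings, between 1.35 and 1.67, with 1.37 once exon length and GC content were corrected for. FOSL1 has an exon length of 1887 nt, shorter than most genes tested.

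FOSB, on the plus strand of chromosome 19 from 45467995 to 45475179 (4 exons), is a classical early response gene whose truncated splice product is known for its stability. Its counts were few, with 129 and 195 in control against 564 and 391 under the PRMT5 KD label. On the CPM scale these were 3.26 and 3.90 against 11.9 and 8.18, again without overlap. The log2 fold change was 1.48 ± 0.24 (standard error, edgeR FDR = 0.00332), and it was called under all 15 alternative settings, between 1.23 and 1.73. Gene-level counts do not tell the FOSB splice forms apart.

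FOS, the founding member of the family, lies on the plus strand of chromosome 14 from 75278826 to 75282230 (4 exons). It had 3.94 and 5.28 CPM in control against 7.02 and 5.98 CPM under the PRMT5 KD label. The groups did not overlap, but the log2 fold change of 0.49 (standard error 0.23) had an FDR of 0.107 in edgeR, and it was not called. With total counts in place of TMM it was 0.67 and was called (FDR = 0.0375).

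FOSL2, which codes for Fra-2, lies on the plus strand of chromosome 2 from 28392448 to 28417317 (4 exons) and had the most counts of the family. Its levels were 599 and 542 CPM in control against 692 and 688 CPM under the PRMT5 KD label. The libraries of each group lay close together and the groups were apart, but the log2 fold change was 0.27 ± 0.13 (standard error, edgeR FDR = 0.125). No setting brought it to a call, and the highest value was 0.45, below the size threshold. The edgeR FDR was 0.0277 with total counts and 0.0281 after the length and GC correction. With that correction and the replicate block it was 0.0473.

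Among the Jun genes JUND was called. JUND, the Jun protein with the broadest basal expression and often opposed to proliferation, is an intronless gene on the minus strand of chromosome 19 from 18279694 to 18281622. It had 131 and 153 CPM in control, and in the PRMT5 KD libraries it had 82.0 and 59.6 CPM, with no overlap. The means were 142 ± 16.0 CPM and 70.8 ± 15.8 CPM (SD, n = 2 each), and the log2 fold change was -1.0 ± 0.18 (standard error, edgeR FDR = 0.00491). Without control replicate 2 it was -0.88 with an FDR of 0.0503, and under the other 14 alternatives it was called, between -1.21 and -0.78. Its longest transcript has 69.9% GC, and after the length and GC correction the log2 fold change was -0.90.

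JUN, the founding member of its family, has 1 exon in its canonical transcript and lies on the minus strand of chromosome 1 from 58776845 to 58784048. It had 175 and 162 CPM in control against 143 and 111 CPM under the PRMT5 KD label. The groups did not overlap, and the log2 fold change was -0.41 ± 0.15 (standard error, edgeR FDR = 0.0578), short of both thresholds. The FDR was 0.0418 in DESeq2 and 0.0485 in edgeR with upper quartile scaling, at -0.40 and -0.41, below the size threshold. Under the other settings with all libraries the FDR was above 0.05. Without PRMT5 KD replicate 1 the log2 fold change was -0.57, and without replicate 2 it was -0.23.

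JUNB, a Jun protein that in many settings holds back JUN, is intronless and lies on the plus strand of chromosome 19 from 12791486 to 12793315. It had 48.9 and 63.4 CPM in control against 52.0 and 47.9 CPM under the PRMT5 KD label, so the groups overlapped. The log2 fold change was -0.17 ± 0.15 (standard error, edgeR FDR = 0.377), within the spread between replicates.

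**Figure D2:**
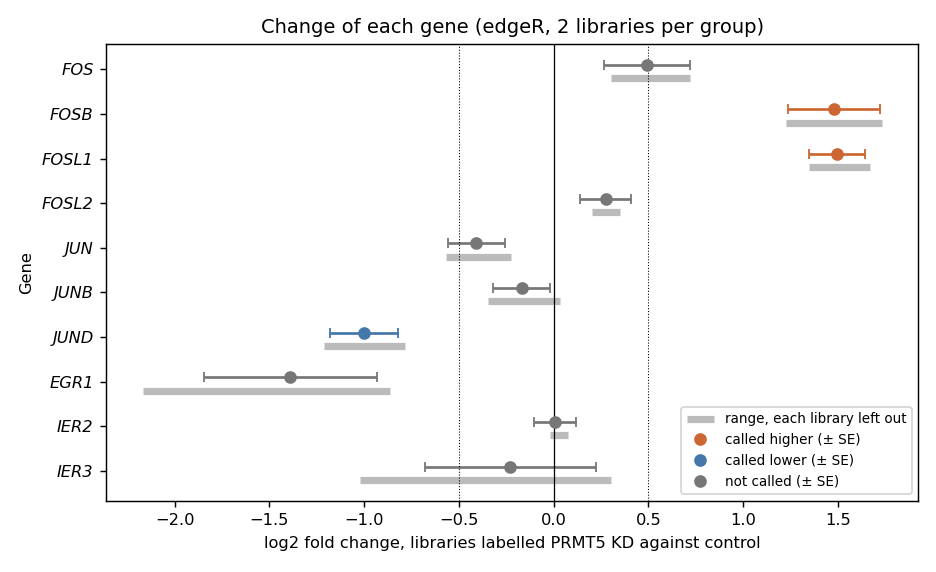
log2 fold change of each gene, libraries labelled PRMT5 KD against control, with its standard error (2 libraries per group), coloured by call. Grey bars give the range over the 4 fits that each left out 1 library, and dotted lines mark 0.5 in each direction. FOSL1 and FOSB stay above 1 and JUND below -0.5 in every fit, while the bar of EGR1 runs from -2.17 to -0.86 and that of IER3 crosses 0.

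EGR1, a zinc finger factor that stands beside FOS as a readout of ERK and serum response factor, lies on the plus strand of chromosome 5 from 138465479 to 138469303 (2 exons). It had 61.1 and 72.2 CPM in control and 36.4 and 14.5 CPM in PRMT5 KD replicates 1 and 2. Both PRMT5 KD libraries were below both controls, and they differed from each other by 1.33 on the log2 scale, a gap at the 98.9 percentile of all genes tested. The log2 fold change was -1.39 ± 0.46 (standard error, edgeR FDR = 0.0588), and EGR1 was not called. It was called under 7 of 15 alternatives, among them DESeq2 (FDR = 0.000413) and the replicate block (-1.53, FDR = 0.0398). The fits without either PRMT5 KD library are among the 7, but there the gap between the PRMT5 KD libraries did not enter the spread. The log2 fold change was -2.17 without replicate 1 and -0.86 without replicate 2, so its direction held in each while its size depended on the library.

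IER3, a small stress and NF-kB responsive protein linked to cell survival, lies on the minus strand of chromosome 6 from 30743199 to 30744548 (2 exons). It had 1248 and 1208 CPM in control and 1506 and 588 CPM in PRMT5 KD replicates 1 and 2. The PRMT5 KD libraries lay on either side of the controls, with a gap of 1.36 on the log2 scale (99.0 percentile), and the log2 fold change was -0.23 ± 0.45 (standard error, edgeR FDR = 0.694). Its direction rested on the library. The log2 fold change was -1.02 without PRMT5 KD replicate 1 and 0.30 without replicate 2.

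IER2, a nuclear early response protein, lies on the plus strand of chromosome 19 from 13150411 to 13154911 (2 exons). It had 60.0 and 61.1 CPM in control against 63.4 and 58.2 CPM under the PRMT5 KD label. The groups overlapped, and the log2 fold change was 0.01 ± 0.11 (standard error, edgeR FDR = 0.968).

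In each of the 10 genes PRMT5 KD replicate 1 had the higher level of the pair, as in 49.9% of all genes tested. The median absolute log2 difference between the PRMT5 KD libraries was 0.36 over the 10 genes and 0.18 over all genes. Between the control libraries it was 0.19 and 0.13, and replicate 1 was the higher in 4 of the 10 genes. PRMT5 KD replicate 1 was also the library with the largest share of ribosomal RNA, and whether that share had a part in these levels was not tested.

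**Figure D3:**
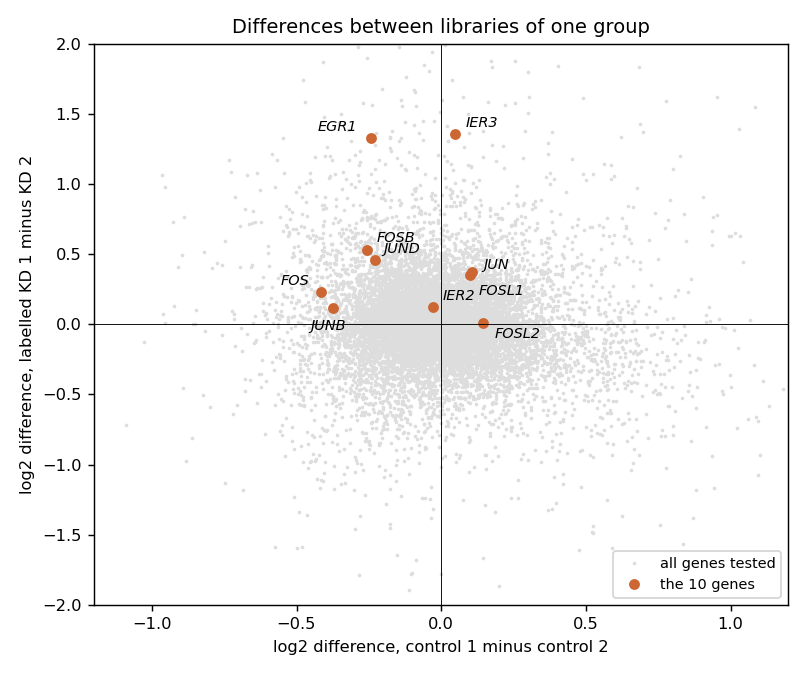
log2 difference between the libraries of a group, replicate 1 minus replicate 2, for control (horizontal axis) and for the libraries labelled PRMT5 KD (vertical axis). Orange points are the 10 genes and grey points all 11884 genes tested, 78 of which lie outside the axes. All 10 genes lie above 0 on the vertical axis, with EGR1 at 1.33 and IER3 at 1.36.

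To compare levels between genes, counts were divided by exon length (RPKM, TMM-scaled). In control the order of the mean RPKM levels was IER3 (910 ± 20.9, SD, n = 2), FOSL2 (79.7 ± 5.69), JUND (73.6 ± 8.29), JUN (46.6 ± 2.45), FOSL1 (41.5 ± 2.02), JUNB (30.7 ± 5.62), EGR1 (21.2 ± 2.51), IER2 (19.7 ± 0.257), FOS (1.45 ± 0.296) and FOSB (0.644 ± 0.0813). FOSL2 and JUND overlapped between libraries, as did EGR1 and IER2, and the other neighbours did not. Under the PRMT5 KD label the order was IER3 (776 ± 481), FOSL1 (117 ± 19.9), FOSL2 (96.4 ± 0.405), JUND (36.7 ± 8.20), JUN (35.1 ± 6.37), JUNB (27.3 ± 1.55), IER2 (19.8 ± 1.21), EGR1 (8.11 ± 4.95), FOS (2.04 ± 0.230) and FOSB (1.80 ± 0.468). There JUND overlapped with JUN, and FOS with FOSB. On this scale FOSL1 thus stood below FOSL2 in both control libraries and above it in both libraries labelled PRMT5 KD. That order rests on the exon lengths used, 1887 nt for FOSL1 and 7162 nt for FOSL2, and other lengths were not tried. In counts, where longer genes weigh more, FOSL2 stayed above FOSL1, at 32937 and 32892 against 11779 and 9291 under the PRMT5 KD label. The ratio of FOSL1 to FOSL2 RPKM was 0.513 and 0.529 in control against 1.36 and 1.07 under the PRMT5 KD label.

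The Fos family levels summed to 128 and 118 RPKM in control against 232 and 202 RPKM under the PRMT5 KD label. FOSL1 and FOSL2 made up nearly all of it. The FOSL1 share was 33.4% and 33.9% in control against 56.5% and 50.9% under the PRMT5 KD label, and the FOSL2 share 65.2% and 64.1% against 41.6% and 47.5%. FOS held at most 1.4% and FOSB at most 0.919% in any library. The Jun family levels summed to 143 and 159 RPKM in control against 110.5 and 87.7 RPKM under the PRMT5 KD label. The JUND share was 47.4% and 49.98% in control against 38.5% and 35.2% under the PRMT5 KD label. JUNB held 18.7% and 21.8% against 25.7% and 29.9%, and JUN 33.8% and 28.2% against 35.8% and 34.9%. Sums and shares were not tested, since an exact permutation test of 2 libraries against 2 cannot go below p = 0.333. RNA levels do not give the amounts of the proteins or of the dimers.

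**Figure D4:**
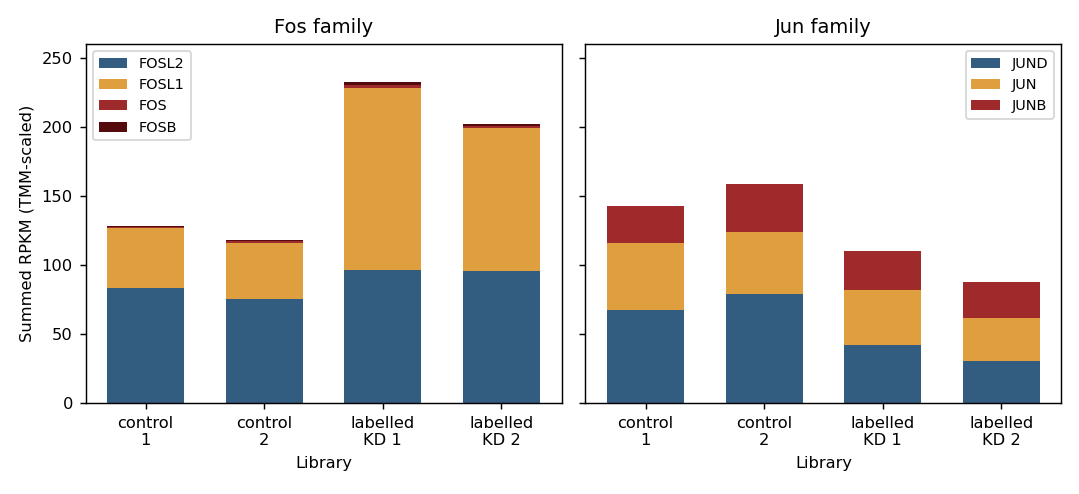
Summed RPKM (TMM-scaled) of the Fos and Jun families in each library, stacked by gene. The Fos sum is higher in both libraries labelled PRMT5 KD, at 232 and 202 against 128 and 118 in control, and the FOSL1 segment is larger in both, while the Jun sum is lower, at 110.5 and 87.7 against 143 and 159.

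The genes whose profile over the 4 libraries was most like that of FOSL1, by the root mean square distance of centred log2 CPM, were HAPLN3 (0.0138), HIST1H4H (0.0178) and DPYSL4 (0.0392). Their log2 fold changes were 1.52, 1.48 and 1.48. With 4 libraries in 2 groups the likeness is given only as a description.

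Other genes of the pathway were followed as lists. Of 15 other basic leucine zipper genes that can join AP-1 (the ATF, BATF, JDP2 and MAF proteins and CREB5), 14 were tested, 4 rose and 2 fell, with a median log2 fold change of 0.12. Calls made up 42.9% of those tested, against 45.5% of all genes tested (21.2% higher and 24.3% lower). BATF3 (1.54, standard error 0.22, FDR = 0.00204) and MAFF (1.26, standard error 0.22, FDR = 0.00509) were among those that rose. BATF3 is a lineage factor of low level here, with at most 2.30 CPM in control, and MAFF is a small MAF protein without a transactivation domain, with 57.1 and 47.9 CPM in control against 151 and 101 CPM. MAF fell from 4.52 and 4.62 CPM to 0.967 and 0.565 CPM (log2 fold change -2.57, standard error 0.32, FDR = 0.00124), and CREB5 fell by 1.31 on the log2 scale. ATF3, itself an early response gene and a frequent JUN partner, had 61.6 and 51.7 CPM against 63.9 and 46.9 CPM, without a call (FDR = 0.893).

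Of 30 other immediate early genes, MAFF among them, 27 were tested, 13 rose and 1 fell, with a median log2 fold change of 0.64. Calls made up 51.9% of those tested, against a background of 45.5% (21.2% higher and 24.3% lower). EGR2, EGR3 and EGR4 were below the filter. ARC, a synaptic early response gene, went from 0.707 and 0.520 CPM to 9.52 and 10.9 CPM (log2 fold change 4.07, standard error 0.26, FDR = 0.000247). DUSP2, a phosphatase that switches off ERK, went from 0.581 and 0.460 CPM to 8.55 and 6.95 CPM, a log2 fold change of 3.90. KLF4, a zinc finger factor of epithelial differentiation, rose from 7.48 and 6.44 CPM to 45.5 and 69.7 CPM, a log2 fold change of 3.05. ZFP36L1, a protein that speeds the decay of mRNAs, fell from 376 and 339 CPM to 115 and 114 CPM (log2 fold change -1.64, standard error 0.12, FDR = 0.000326).

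Of 26 kinases, coactivators and turnover factors upstream of AP-1, 25 were tested, 4 rose and 3 fell, with a median of -0.04. That is 28.0% of those tested, below the 45.5% called among all genes (21.2% higher and 24.3% lower). MAP2K1, a kinase directly above ERK, rose from 64.1 and 59.5 CPM to 131 and 113 CPM (log2 fold change 0.98, standard error 0.12, FDR = 0.00133). MAP2K2, another such kinase, had 246 and 252 CPM in control against 209 and 163 CPM, without a call (log2 fold change -0.42, FDR = 0.0515). MAPK3, which codes for ERK1, fell from 44.5 and 53.1 CPM to 21.8 and 20.7 CPM (log2 fold change -1.2, standard error 0.14, FDR = 0.000914). ELK1 (0.66) and MAPK8 (0.58), which code for a serum response partner and for the JNK kinase that phosphorylates JUN, rose too, but both lost their calls without either control library and without PRMT5 KD replicate 1. MKL2 (-0.74) and ELK4 (-0.70), coactivator and partner of serum response factor, fell, and both lost their calls after the length and GC correction (-0.35 and -0.42). With either control library left out, 1 gene of the list was called higher.

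Of 22 known AP-1 targets of epithelial and carcinoma cells, 14 were tested, 8 rose and 1 fell, with a median of 1.30. That is 64.3% of those tested, beside 45.5% of all genes (21.2% higher and 24.3% lower). The cornified envelope genes IVL, SPRR1A and SPRR1B were below the filter, as were MMP9, MMP10 and MMP13. LOR, another envelope gene, was not matched to an annotated gene and so was not tested, with at most 1 count in any library. MMP3, a stromelysin, had 16.4 and 17.3 CPM in control and 1388 and 200 CPM in PRMT5 KD replicates 1 and 2, and its log2 fold change was 5.56 ± 1.08 (standard error, edgeR FDR = 0.0130). That value was 3.60 without PRMT5 KD replicate 1 and 6.37 without replicate 2. The cytokine IL6 had 340.4 and 231 CPM against 1692 and 765 CPM (log2 fold change 2.11, FDR = 0.0145), and without PRMT5 KD replicate 1 the log2 fold change was 1.46. VEGFA, the angiogenic growth factor, fell from 400 and 462 CPM to 111 and 59.3 CPM, and its log2 fold change was -2.34 ± 0.32 (standard error, edgeR FDR = 0.00336). PRMT5 KD replicate 1 had the higher level of its pair in all 14 targets tested, with a median absolute gap of 1.02 on the log2 scale. The count of targets called higher was 4 and 3 without control replicates 1 and 2 and 12 without PRMT5 KD replicate 2. MMP3 lost its call without either control library, and IL6 without control replicate 2.

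**Figure D5:**
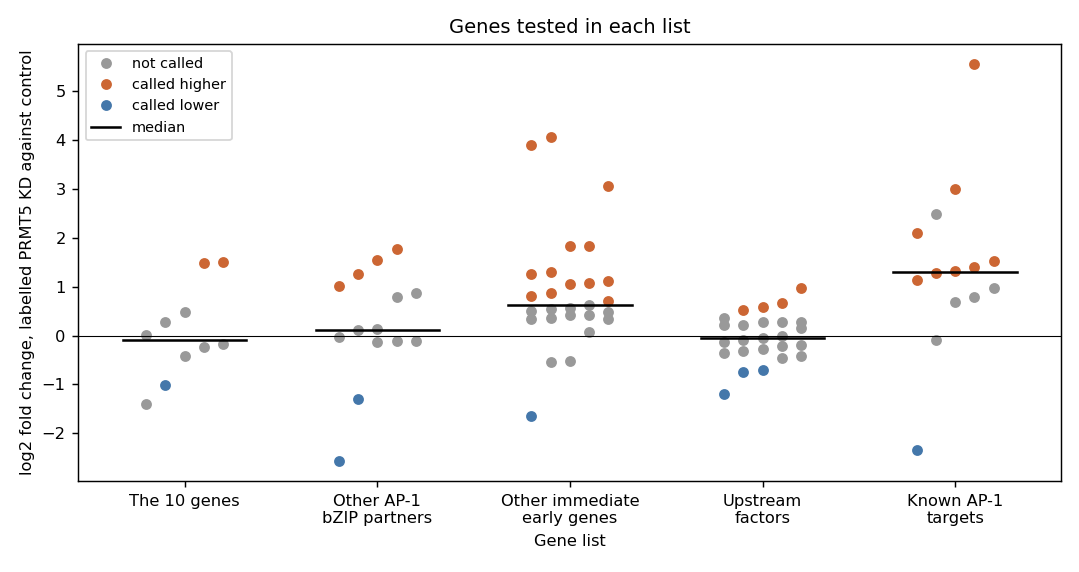
log2 fold change of every gene tested in each list, libraries labelled PRMT5 KD against control, with a point per gene coloured by call and a line at the median. Medians are -0.08 for the 10 genes, 0.12 for other AP-1 partners, 0.64 for other immediate early genes, -0.04 for upstream factors and 1.30 for known targets, against -0.01 over all genes tested.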

How the data were processed

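RNA-seq libraries from UMSCC74B cells were analysed, 2 control and 2 labelled PRMT5 KD. The authors deposited estimated counts per gene, not normalized, with decimals. The submitters' processing notes name FastQC, Trim Galore, STAR, Salmon and DESeq2 on GRCh38, whereas the methods of the paper describe FeatureCounts with protein-coding Gencode genes, yet other gene classes are in the tables too. Each table held 29744 entries, and 28 entries named as calendar dates, a spreadsheet error, were left out. Names were matched to GENCODE release 44 by current symbol (21877) or through a RefSeq symbol or synonym (1569), and 18857 were protein-coding. Counts were rounded. Protein-coding genes were tested if their RPKM, on union exon lengths, reached 0.5 in the 2 libraries of a group. The test was the quasi-likelihood test of edgeR 4.0.16 (robust dispersion, TMM, R 4.3.3, no replicate term) with the Benjamini-Hochberg FDR across the genes tested, and every FDR in the text comes from it unless another tool is named. Standard errors were derived from the log2 fold change and F. The procedure was tested on simulated data. Alternatives were DESeq2 1.42.0, other scalings, filters and dispersion, all gene names, a replicate block, offsets for GC content and exon length (4-df splines), and fits without each library. Fits without a library estimate the spread from the other group alone. The 10 genes and all lists were chosen with earlier results of these data known, and the lists came from general knowledge. From each list the text names at most 3 called genes per direction, by size of change. Genes that this rule names but that are withheld are not reported here. ATF3, MAP2K2, CD68, CD14, LOR and genes named for being below the filter were named after their values were seen. PCR copies are not independent molecules, so counts carry more than counting error.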

Additional observations from a re-analysis of the deposited data

How the results depend on the processing

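The calls of FOSL1 and FOSB held under all 15 alternatives, and FOSL2 was called under none. Genes called numbered 5405 (2517 higher, 2888 lower) and fell to 2552 (1028 and 1524) with a log2 threshold of 1, by construction. They ranged from 3104 to 5697 with a library left out (1348 to 2759 higher, 1756 to 2946 lower), the lowest without control replicate 2. With total counts alone the median log2 change over all genes was 0.17 and 61.4% of calls were higher, against 46.6%. FOS was then called (0.67) and JUNB was above 0 (0.0089).

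Of the 10 genes, 2 in place of 1 were called lower with all gene names, non-robust dispersion, DESeq2, the replicate block, and the block with the length and GC correction. In each case EGR1 was added, at -1.36, -1.39, -1.39, -1.53 and -1.54. The numbers were not treated as pairs: deviations of same-numbered libraries had a correlation of -0.0995 across genes, and the replicate block gave 5172 calls and changed the call of EGR1 alone among the 10. With a library left out, genes called among the 10 ranged from 2 to 6 (0 to 4 lower). The log2 fold change then ranged from -0.57 to -0.23 for JUN, -0.34 to 0.0316 for JUNB (above 0 without control replicate 2), -1.21 to -0.78 for JUND, -2.17 to -0.86 for EGR1, -0.0197 to 0.0744 for IER2, -1.02 to 0.30 for IER3 and 0.57 to 0.78 for PRMT5. IER2 was below 0 without control replicate 1 (-0.0070) and without PRMT5 KD replicate 1 (-0.0197).

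Known targets called higher were 5 without a filter on low counts and 3 to 12 with a library left out. Other AP-1 partners called lower were 1 with all gene names. Upstream factors called lower were 1 after the length and GC correction, also with the block, and 3 to 5 with a library left out, and 1 to 4 were called higher. Other immediate early genes called lower were 1 to 2. Taken on raw counts, where longer genes weigh more by construction, the differences in share of the Fos family were -0.0080, 0.526, 11.8 and -12.4 percentage points for FOS, FOSB, FOSL1 and FOSL2, against -0.245, 0.298, 20.0 and -20.1 on RPKM. In the fits with a library left out, 1 group had 1 library and the spread came from the other group alone. The causes of the other changes were not tested. With 2 libraries per group, tests for outlying libraries were not applicable.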
